A study of Mus musculus with 5 samples.

Results

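Naïve lung ILC2s were compared with lung ILC2s of mice that had carried a tumour for 2 weeks, both sequenced without culture. Cells were selected on *Gata3* and *Il1rl1*, the genes of a transcription factor and of the ST2 receptor, used here as markers of ILC2s. A barcode was kept with 200 or more genes, under 5% mitochondrial counts and at least 1 unique molecular identifier (UMI, a counted RNA molecule) of either gene. This left 5889 naïve and 1770 week 2 cells, 7659 of the 16533 cells of the series that passed the first pair of filters and of 18628 barcodes deposited in all.

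The series held 5 single-cell libraries made with the 10x 3' chemistry, each from lung ILC2s of female wild-type (WT) C57BL/6 mice aged 4 to 8 weeks, with 5 mice to a group. The naïve library came from mice without a tumour, labelled naive and non-activated. The week 2 library, called ta-non-activated, came from mice with TC1 lung tumour cells under the skin of the flank. The other 3 libraries were a ta-non-activated one of week 3 and ta-activated ones of weeks 2 and 3, the latter cultured for 7 days with rhIL-2, rmIL-33 and TSLP. Cells were sorted on ST2, CD127, Thy1.2 and CD45 without lineage markers. With 1 library on each side, no spread between mice could be measured, so no test was made, and the tumour and the library cannot be told apart. All intervals below are 95% intervals of counting error only.

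ILC2s are tissue-resident lymphocytes without antigen receptors of their own that answer alarmins such as IL-33, TSLP and IL-25. On stimulation they secrete IL-5 and IL-13, which recruit eosinophils and induce mucus, and they release amphiregulin, which acts on epithelial repair. Their identity rests on the transcription factors GATA3, RORα and ID2, and cytokines of the common gamma chain family support their survival.

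The 2 libraries were counted with different versions of Cell Ranger, 6.0.0 for the naïve matrix and 3.0.2 for the week 2 matrix, so the version and the group cannot be told apart. Gated naïve cells held 30252380 UMIs and gated week 2 cells 32830518, with medians of 4549 and 16279 UMIs per cell. Levels are given as counts per 1e6 UMIs of the gated cells of a library (CPM), and a log2 ratio is that of week 2 over naïve with 1 CPM added to both. Among 6565 genes at 20 CPM or more in either library, the median log2 ratio was -0.19. Split into 10 bins of equal size by the intron length of the gene, the medians ran from 0.73 in the bin with the shortest introns and 0.997 in the next to -2.94 in the bin with the longest. Against the week 3 ta-non-activated library, which shares the week 2 version of Cell Ranger, the medians of the same bins lay between 0.30 and -0.47. Genes with 50 kb or more of intron took up 25.8% of naïve UMIs and 6.82% of week 2 UMIs. The other 3 libraries lay between 8.31% and 9.55%. List counts that centring changed, and the genes on which intron length bears most, are therefore also given centred. Centring subtracts the median of the bin from the log2 ratio. Ratios of long-intron genes are uncertain.

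**Figure D1:**
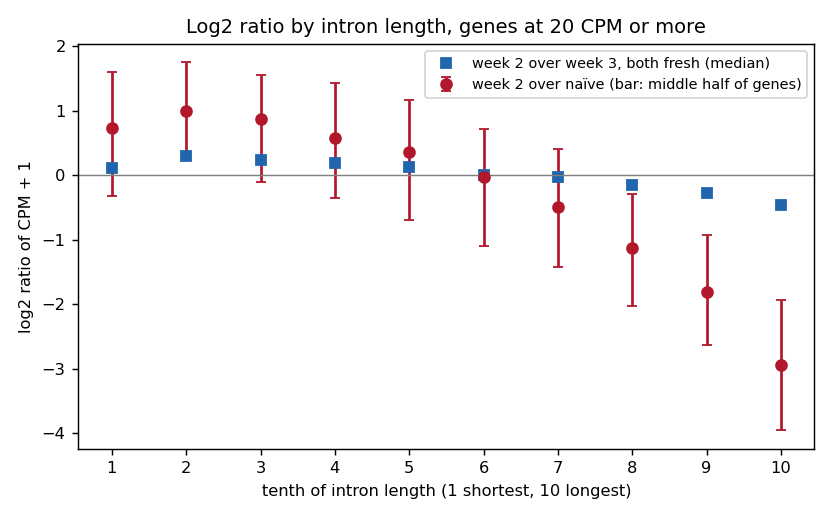
Median log2 ratio of CPM + 1 (vertical axis) in each of 10 bins of intron length (horizontal axis, shortest introns at 1) for genes at 20 CPM or more. Circles are week 2 over naïve with bars over the interquartile range of the genes, and squares are week 2 over week 3, both fresh. The circles descend from 0.73 and 0.997 to -2.94, while the squares stay between 0.30 and -0.47.

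On *Fos* and *Il13*, given below, the week 2 library stood apart from the other uncultured libraries. Over 2053 genes with under 10 kb of intron, the Spearman correlation of CPM across genes was 0.619 between week 2 and naïve, 0.785 between week 2 and week 3 ta-non-activated, and 0.837 between week 2 ta-non-activated and week 2 ta-activated. The naïve and week 3 ta-non-activated libraries had a correlation of 0.804. With the ta-activated libraries of weeks 2 and 3, naïve had correlations of 0.727 and 0.750 and week 3 ta-non-activated 0.775 and 0.752. The correlation of week 2 ta-non-activated with week 3 ta-activated was 0.817. Genes are not independent points, the libraries differ in depth, and these genes were chosen at 20 CPM in the naïve or week 2 library. *Fos*, an early response gene, was at 1139 CPM in naïve cells and 686 CPM in uncultured week 3 cells, and at 0.701 CPM in uncultured week 2 cells against 1.99 and 1.41 CPM in the cultured ones. *Il13* was at 59.0 and 34.3 CPM in the former pair and at 8926, 3575 and 4332 CPM in the latter 3. On *Fos* and *Il13* the library labelled week 2 non-activated lay with the cultured libraries. It also lay with them on *Fosb*, *Rgs2*, *Il2* and *Phlda3*, among others. On *Calca*, *Areg* and the interferon-induced genes it did not. The genes on each side were not counted. Interferon-induced genes summed to 1199 CPM in the uncultured week 2 library and 1089 CPM in uncultured week 3 cells, against 9383 and 12466 CPM in the cultured libraries. After thinning each cell to 2000 UMIs, 538 of 1766 uncultured week 2 cells (30.5%) and 167 of 836 uncultured week 3 cells held 3 or more of these genes, and 96.3% and 99.6% of cultured cells did. The cause was not tested. The gate kept only 56.3% of filtered week 3 uncultured cells, or 902, of which 322 held a single UMI of the gate genes. Of 836 such gated cells after thinning, 48.6% held 3 or more T cell genes. Week 3 uncultured levels given here and below include these cells, and their part in those levels was not tested. No second uncultured week 2 library was analysed here, so no result below could be given without this one, and values of the other libraries are set beside the main genes.

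The gate kept 92.1% of naïve cells and 97.1% of week 2 cells. Just inside it lay 398 naïve and 96 week 2 cells with a single UMI of the 2 genes together, and just outside lay 503 and 53 cells with none. After thinning each cell to 2000 UMIs, 5241 naïve cells and 1001 week 2 cells still held a gate gene. The levels that chose the cells are therefore given only as a description. *Gata3* was at 835 CPM in naïve and 340.5 CPM in week 2 cells, and *Il1rl1* at 847 and 57.0 CPM. Both genes were present in both libraries, with *Il1rl1* the scarcer of the pair in week 2 cells. Only 3 gated barcodes were shared between the 2 libraries.

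By the 2-fold limit used here, 1597 of 6565 genes (24.3%) were higher in week 2 and 2290 (34.9%) were lower. After centring on intron length, 1369 of 6564 (20.9%) were higher and 1575 (24%) lower. Among the 2053 short-intron genes, 935 (45.5%) were higher and 243 (11.8%) lower. The scale mattered for this split. TMM scaling shifted the log2 ratios up by 0.39 and gave 2244 higher and 1802 lower genes, so that 55.5% of the calls were higher in place of 41.1%, and median-of-ratios scaling shifted them up by 0.43. A share of a list past the limit is to be read against these percentages.

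**Figure D2:**
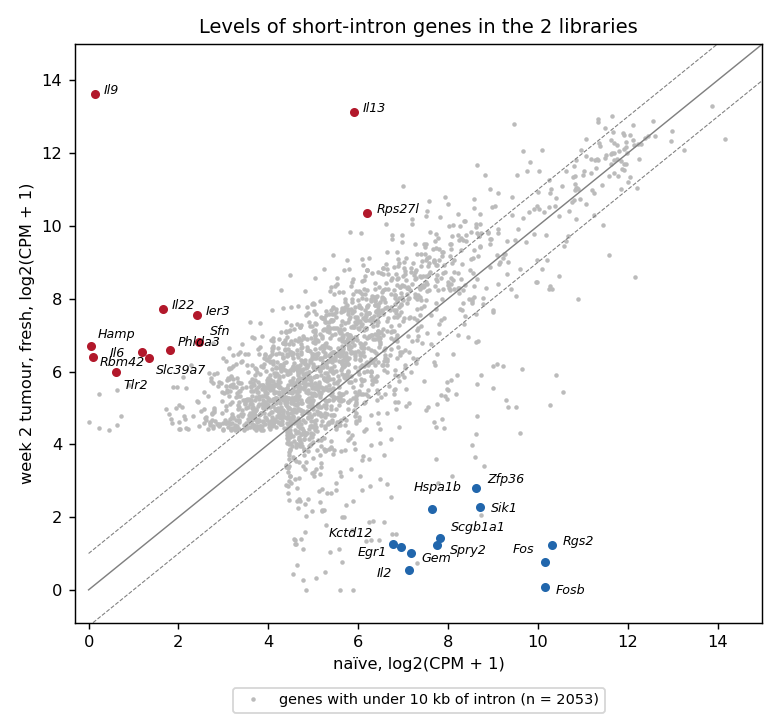
Levels of 2053 genes with under 10 kb of intron in the naïve library (horizontal axis) and the week 2 library (vertical axis), both as log2(CPM + 1). The solid line marks equal levels and dashed lines a 2-fold difference; red and blue points are the 12 protein-coding genes with the highest and the 12 with the lowest ratio at 50 CPM or more. *Il9* and *Il13* lie far above the line and *Fosb*, *Fos* and *Rgs2* far below it.

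Among the cytokine genes, *Il9*, *Il13*, *Il5*, *Csf2*, *Il6* and *Il22* were higher in week 2 cells, while *Il2*, *Calca*, *Lif*, *Csf1* and *Il4* were lower. Of 19 cytokine genes, 13 reached 20 CPM, of which 6 were higher, 5 lower and 2 within 2-fold. Their median log2 ratio was 0.25 (-0.32 after centring), against -0.19 over all genes, with members far out on both sides. After centring the counts stayed at 6 higher and 5 lower. *Il9*, a growth factor for mast cells and for ILC2s themselves, had the highest log2 ratio of the 6565 genes. It had 3 UMIs in 5889 naïve cells, or 0.0992 CPM, and 416509 UMIs in week 2 cells, or 12687 (12648 to 12725) CPM. The ratio was 127934-fold (95% interval 43776 to 620365), an interval set by the 3 naïve UMIs. It takes each UMI as a separate count, but after thinning each cell to 2000 UMIs naïve *Il9* was 2 UMIs in 1 cell. In the other libraries *Il9* was at 0 CPM in week 3 ta-non-activated cells and at 118 and 343 CPM in ta-activated cells of weeks 2 and 3, so the week 2 uncultured library had the highest level of the 5. *Il13*, which drives mucus production and airway reactivity, was at 59.0 (56.3 to 61.8) CPM in naïve cells and 8926 (8894 to 8958) CPM in week 2 cells, 151-fold (95% interval 144 to 158) higher. *Il5*, the eosinophil growth factor, was at 181 (176 to 186) and 1234 (1222 to 1246) CPM, 6.82-fold (95% interval 6.63 to 7.01) higher. *Il4*, the neighbour of *Il13* in the type 2 locus, went the other way at 28.0 and 9.02 CPM, with a log2 ratio of -1.53 and of -2.10 after centring.

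The other cytokines that were higher act on myeloid and epithelial cells. *Csf2*, which encodes GM-CSF, was at 379 CPM in naïve and 1441 CPM in week 2 cells, 3.81-fold (95% interval 3.73 to 3.89) higher. *Il6*, a general inflammatory cytokine, was at 1.29 and 91.8 CPM, and *Il22*, which acts on epithelium and is best known from ILC3s, at 2.15 and 211 CPM. With 39 and 65 naïve UMIs, their ratios were 71.2-fold (95% interval 52.0 to 100.4) and 98.4-fold (95% interval 77.1 to 128). These intervals take each UMI as a separate count. After thinning each cell to 2000 UMIs, naïve *Il22* was 14 UMIs in 3 cells, with 10 in 1 cell. On the lower side, *Il2*, a T cell growth factor, was at 139 (135 to 143) CPM in naïve and 0.457 (0.256 to 0.754) CPM in week 2 cells, 304-fold (95% interval 184 to 544) lower. *Calca*, the gene of the neuropeptide CGRP, was at 217 and 6.61 CPM, 32.8-fold lower, although it reached 148 and 399.8 CPM in the cultured libraries. *Lif* and *Csf1* were 10.3-fold and 4.38-fold lower. *Tnf*, at 103 and 86.5 CPM, and *Tgfb1*, at 174 and 206 CPM, lay within 2-fold. *Il17a*, the cytokine of type 17 cells, had 396 naïve UMIs (13.1 CPM) and none in week 2, at least 143-fold lower when 3 counts are set as the floor.

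Counted per cell, the 2 leading cytokines were spread in different ways. Each cell with at least 2000 UMIs was thinned to 2000, which kept 5705 naïve and 1766 week 2 cells with medians of 4634 and 16310 UMIs before thinning. *Il13* was found in 5.07% (4.51 to 5.67) of naïve cells and 89.5% (87.9 to 90.9) of week 2 cells, or in 8.01% and 95.8% without thinning. *Il9* was found in 1 of 5705 naïve cells and in 38.4% (36.1 to 40.7) of week 2 cells (59.8% without thinning). *Il5* was in 16.6% of naïve and 60.0% of week 2 cells, and *Csf2* in 23.3% and 69.6%. As a background, 31 naïve cells with 3 or more endothelial genes, at a median of 4527 UMIs, held *Il13* and *Il9* in 0 cells and *Il5* and *Csf2* in 2 cells each, 6.45% (0.791 to 21.4). The week 2 library had no such cells, and its 43 cells outside the gate that reached 2000 UMIs, at a median of 8976, held *Il13* in 53.5% and *Il9* in 6 of 43. The naïve endothelial cells cannot show the background of the week 2 library, where both genes were abundant. Whether the 43 cells held background or expression of these genes was not tested.

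*Il9* UMIs were concentrated in a minority of week 2 cells. The median cell had 0 *Il9* UMIs per 2000, the cell at the 90th percentile 78 and the highest 291, and the 89 cells with most held 41.5% of the *Il9* UMIs. *Il13* was more even, with a median of 9 UMIs per 2000, 45 at the 90th percentile and 23.9% of UMIs in the 89 cells with most. *Il9* was found in 39.9% of week 2 cells with *Il13* and in 25.8% of those without. *Il5* was found in 64.6% of week 2 cells with *Il13* and 20.4% of those without, and in naïve cells in 30.1% and 15.9%. *Il22* and *Hamp*, the gene of the iron hormone hepcidin, were found in 55 and 85 of the 1766 week 2 cells, with up to 81 and 31 UMIs per 2000 in 1 cell, and *Il6* in 9.12% of cells.

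**Figure D3:**
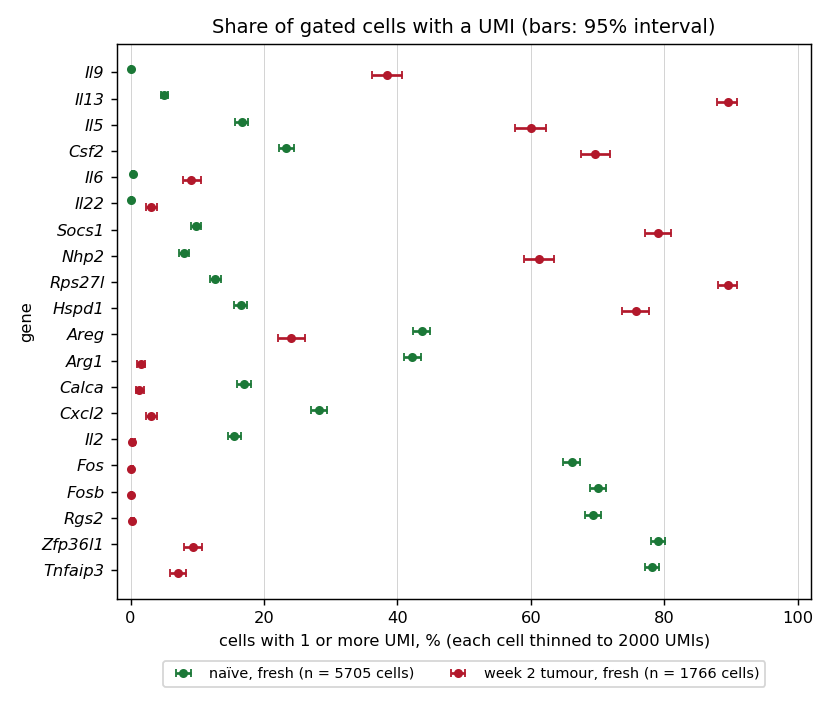
Share of gated cells with at least 1 UMI of each gene (horizontal axis, percent) after thinning to 2000 UMIs, in 5705 naïve cells (green) and 1766 week 2 cells (red), with exact 95% intervals. *Il13* goes from 5.07% to 89.5% and *Il9* from 0.0175% to 38.4%, while *Fos*, *Fosb* and *Rgs2* go from 66.1%, 70.1% and 69.3% to 0.0566%, 0% and 0.170%.

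The region before the start of *Il9* and *Il13* is shown because they had the 2 highest log2 ratios of CPM + 1. *Il9* lies on chromosome 13 from 56479277 to 56482246 and *Il13* on chromosome 11 from 53631324 to 53634702, both on the minus strand of GRCm38. The sequences are the 250 bases before the RefSeq start (GRCm38.p6), at chr13:56482258-56482507 for *Il9* and chr11:53634703-53634952 for *Il13*. They are written on the strand of the gene, and capitals mark matches on either strand to 4 short core motifs, which are GATAA for GATA factors, TGACG for the proteins that bind cyclic AMP response elements, TGANTCA for the factor AP-1 and GGAAA for NFAT.
Il9: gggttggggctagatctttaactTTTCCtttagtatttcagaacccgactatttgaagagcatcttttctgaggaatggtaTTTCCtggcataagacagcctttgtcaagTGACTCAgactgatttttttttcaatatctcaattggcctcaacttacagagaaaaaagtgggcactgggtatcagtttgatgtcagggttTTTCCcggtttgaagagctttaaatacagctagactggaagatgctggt
Il13: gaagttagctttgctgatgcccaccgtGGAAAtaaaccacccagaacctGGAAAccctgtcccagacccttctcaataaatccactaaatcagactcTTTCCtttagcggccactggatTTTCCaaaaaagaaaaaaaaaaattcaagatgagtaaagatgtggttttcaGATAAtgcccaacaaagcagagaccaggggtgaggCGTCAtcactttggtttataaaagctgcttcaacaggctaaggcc
GGAAA was matched 3 times before *Il9* and 4 times before *Il13*, but 55.6% of 32851 promoters of this length hold it. TGANTCA was matched at 1 place before *Il9*, starting 140 bases upstream, and is held by 6.75% of all promoters. GATAA, held by 22.6%, and TGACG, held by 17.8%, were each matched once before *Il13*, 80 and 45 bases upstream. Such matches describe letters and not binding.

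Of 4 tissue repair genes at 20 CPM, *Areg* and *Arg1* were lower in week 2 cells, *Pdgfb* was higher and *Furin* within 2-fold. After centring 3 were lower, with *Furin* at -1.79, and 1 higher. *Areg*, which encodes amphiregulin, was at 1001 (989.8 to 1012) CPM in naïve and 352 (346 to 359) CPM in week 2 cells, 2.84-fold lower, and was found in 43.6% and 24.0% of thinned cells. *Arg1*, arginase 1 of the urea cycle and a constitutive gene of lung ILC2s, was at 366 (359 to 373) and 5.21 (4.46 to 6.05) CPM, 70.2-fold (95% interval 60.4 to 82.1) lower, and in 42.2% and 1.53% of cells. In the naïve endothelial cells named above, *Areg* was found in 6 of 31 and *Arg1* in 7 of 31 (19.4% and 22.6%). *Calca* and *Cxcl2* were found in 4 and 7 of these 31 cells, and in 969 and 1611 of the 5705 thinned naïve cells. *Furin*, a protease that matures growth factors, was at 1004 and 529.6 CPM, and *Pdgfb*, a growth factor for mesenchymal cells, at 6.08 and 26.3 CPM. The list has 10 members in all. Of 6 chemokine genes at that level, 4 were lower and 1 higher. *Cxcl2* and *Cxcl1*, which attract neutrophils, were at 796 and 23.5 CPM in naïve and 66.2 and 1.40 CPM in week 2 cells. *Cxcl3*, of the same family, was 5.82-fold higher at 81.7 CPM. *Ccl1*, annotated with 127 kb of intron and so uncertain, was 31.4-fold lower, at 537 and 17.1 CPM. Week 3 uncultured cells had 263 CPM of *Ccl1*. *Ccl5*, a lymphocyte chemokine, was 2.13-fold lower, but within 2-fold after TMM scaling. *Cxcl10*, induced by interferon, lay within 2-fold at 22.7 and 43.5 CPM.

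**Figure D4:**
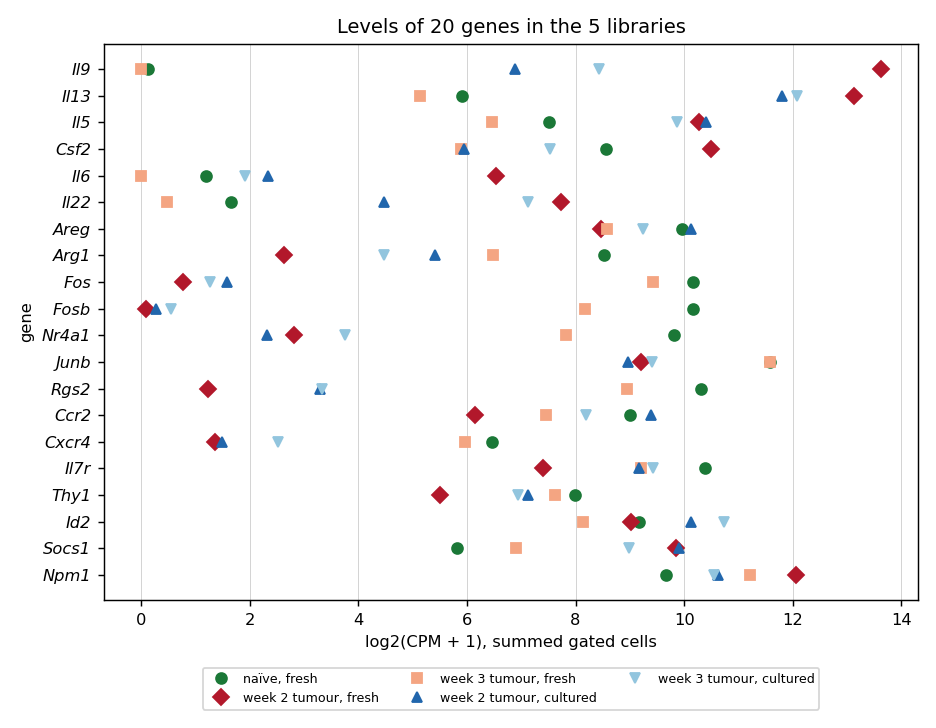
Levels of 20 genes as log2(CPM + 1) of summed gated cells (horizontal axis) in the 5 libraries, 1 point per library. The week 2 uncultured library (red diamonds) has the highest *Il9*, *Il13* and *Csf2*, and its *Fos*, *Fosb* and *Cxcr4* lie with the cultured libraries (triangles) rather than with the naïve and week 3 uncultured ones.

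Immediate early genes, which are switched on within minutes of a stimulus or of cell handling, were mostly far lower in the week 2 library. Of 32 such genes 29 reached 20 CPM, of which 24 were lower and 2 higher, with a median log2 ratio of -4.07 (-4.74 after centring, with 27 lower). Of these, 21 have under 10 kb of intron. *Fosb* was at 1145 (1133 to 1157) CPM in naïve cells and 0.0609 (0.00738 to 0.220) CPM in week 2 cells, where 2 UMIs were counted, and the ratio was 18796-fold (95% interval 5203 to 155211). *Fos* was at 1139 (1127 to 1151) and 0.701 (0.444 to 1.05) CPM, 1626-fold (95% interval 1083 to 2565) lower. Both encode partners of JUN in the factor AP-1, and *Junb*, at 3051 and 592 CPM, and *Jun*, at 621 and 36.1 CPM, were also lower but remained countable. The orphan nuclear receptors *Nr4a1*, *Nr4a2* and *Nr4a3* went from 896, 509.6 and 525 CPM to 6.06, 0.0914 and 0.152 CPM. *Egr1* was 99.0-fold lower, *Zfp36*, which hastens the decay of cytokine mRNA, 66.7-fold lower and *Dusp1*, a phosphatase of MAP kinases, 66.8-fold lower, the last with 53.2 kb of intron. In 96.2% of naïve cells and 32.6% of week 2 cells, 5 or more genes of the list were found after thinning, against 86.5% in the week 3 uncultured library and 31.4% and 45.4% in the cultured ones.

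The 2 members that were higher were *Ier3*, at 4.33 CPM in naïve and 188 CPM in week 2 cells, and the growth regulator *Myc*, at 24.7 and 121 CPM. *Fos* was found in 66.1% of thinned naïve cells and *Fosb* in 70.1%. In the 31 naïve endothelial cells these shares were 51.6% and 38.7%, with medians of 4527 UMIs in these and 4634 in all thinned naïve cells. In week 2 cells *Fos* was found in 1 of 1766 cells and *Fosb* in 0, which allows up to 0.209% of cells with a UMI at this thinned depth and sets no limit on cells that express it. Unthinned, 2 *Fosb* UMIs were counted. Among naïve cells with *Fos*, 76.4% also had *Fosb*, against 57.8% of those without. *Fos* was found in 69.6% (interval 63.9 to 74.8) of naïve cells with *Il13* and in 65.9% (interval 64.6 to 67.2) of those without it. Whether these shares differ was not tested.

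The same stretch before *Fos* and *Fosb* is shown as the counterpart of the cytokine genes, since these had the lowest ratios among short-intron genes. *Fos* lies on chromosome 12 from 85473890 to 85477273 on the plus strand and *Fosb* on chromosome 7 from 19302696 to 19310051 on the minus strand of GRCm38. The 250 bases before the RefSeq start are at chr12:85473640-85473889 and chr7:19310046-19310295, with capitals for the motifs given above.
Fos: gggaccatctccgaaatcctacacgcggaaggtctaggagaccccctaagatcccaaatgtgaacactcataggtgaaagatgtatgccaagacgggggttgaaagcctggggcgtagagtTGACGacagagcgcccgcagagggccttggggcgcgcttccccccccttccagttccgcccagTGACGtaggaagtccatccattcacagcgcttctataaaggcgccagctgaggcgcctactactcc
Fosb: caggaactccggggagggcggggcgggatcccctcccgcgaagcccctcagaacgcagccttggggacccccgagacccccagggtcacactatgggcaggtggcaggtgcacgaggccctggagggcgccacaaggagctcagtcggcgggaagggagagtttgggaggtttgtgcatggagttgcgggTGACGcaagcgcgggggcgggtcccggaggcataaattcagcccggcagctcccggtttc
TGACG was matched 2 times before *Fos*, 129 and 66 bases upstream, and once before *Fosb*, 60 bases upstream. The other 3 motifs had no match in either window.

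Further genes among the 12 lowest ratios, named for that reason, were *Rgs2*, *Spry2*, *Sik1*, *Gem* and *Kctd12*. *Rgs2*, a regulator of G protein signalling, was at 1268 (1256 to 1281) CPM in naïve and 1.34 (0.974 to 1.80) CPM in week 2 cells, 946-fold (95% interval 705 to 1303) lower, and was found in 69.3% and 0.170% of thinned cells. *Spry2*, an inhibitor of receptor kinase signalling, and *Sik1*, a kinase induced by cyclic AMP, were 161-fold and 108-fold lower. *Gem*, a small GTPase, was at 143 and 1.01 CPM and *Kctd12* at 109 and 1.40 CPM. *Gem* differs from the rest in that the week 2 cultured library had 67.7 CPM. In the NF-κB pathway, 10 of 20 genes were lower and 4 higher, with a median of -1.05 (-1.72 after centring, with 12 lower). The 3 lowest ratios belonged to 1 inhibitor of signalling and a pair of nuclear IκB proteins. *Tnfaip3*, which encodes A20, was at 1236 (1223 to 1248) and 32.7 (30.8 to 34.7) CPM, *Nfkbiz* at 792 and 26.2 CPM and *Nfkbid* at 393 and 18.5 CPM. *Nfkb1* was 15.2-fold lower but has 94.8 kb of intron and is uncertain. The higher ones were *Traf1*, an adaptor of TNF receptors, at 153 and 443 CPM, the adhesion molecule *Icam1* at 22.3 and 90.7 CPM, *Nfkbib* and *Nfkb2*. After centring 1 of these, *Icam1*, stayed past 2-fold.

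**Figure D5:**
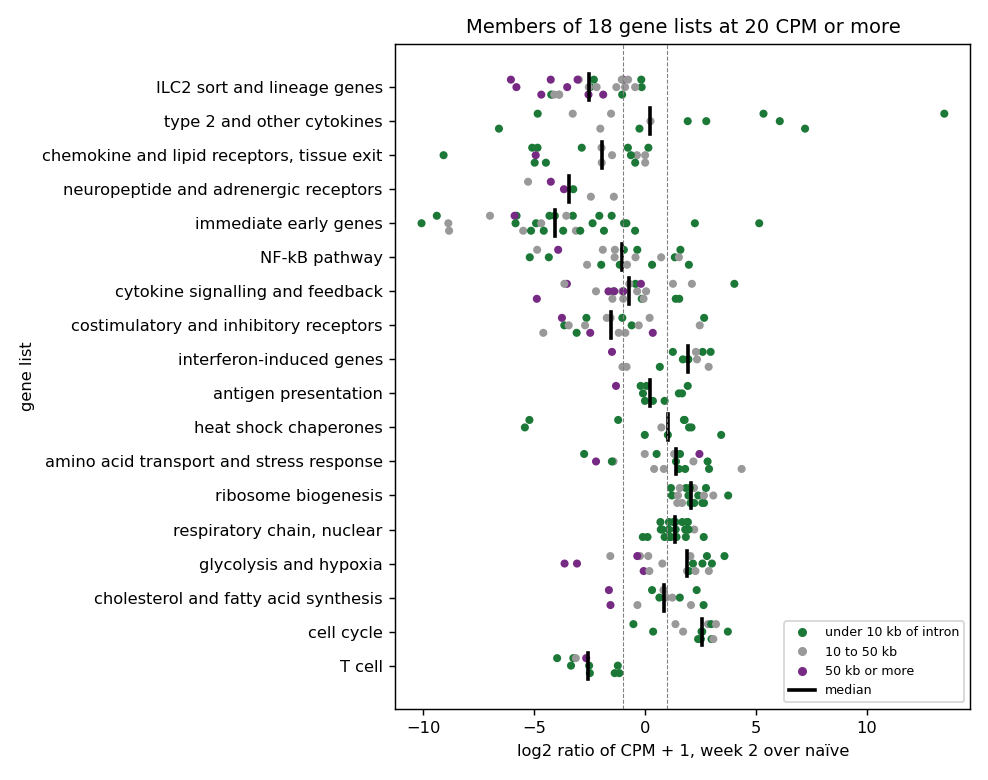
Log2 ratio of week 2 over naïve (horizontal axis, 1 point per gene at 20 CPM or more) for the members of 18 gene lists, coloured by intron length, with the median of each list as a black bar and dashed lines at a 2-fold difference. All 20 ribosome biogenesis genes lie to the right and 24 of 29 immediate early genes to the left.

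Genes of ILC2 identity were mostly lower in week 2 cells. Of 29 sort and lineage genes 27 reached 20 CPM, of which 21 were lower and 0 higher, with a median of -2.53 (-1.74 after centring, with 22 lower). Of these, 9 have 50 kb or more of intron. The gate genes are among them, so the list is a description of the cells chosen. Of the surface molecules used for the sort, *Il7r* (CD127) was at 1341 (1328 to 1354) CPM in naïve and 169 (164 to 173) CPM in week 2 cells, and *Thy1* at 252 (246 to 258) and 44.6 (42.4 to 47.0) CPM. *Ptprc* (CD45) was at 877 and 149 CPM, and its log2 ratio of -2.55 shrank to -0.74 after centring. Among the transcription factors, *Id2* lay within 2-fold before centring, at 573 and 516 CPM, and was found in 56.0% and 63.0% of thinned cells. *Rora* and *Bcl11b* had ratios of -4.25 and -1.88 but 721 and 85.1 kb of intron, and after centring they were at -1.32 and -0.08. *Tox*, *Runx1* and *Zbtb16*, which act in the common ILC pathway, had ratios of -5.80, -4.68 and -6.05, or -2.86, -1.74 and -3.11 after centring, and all have over 100 kb of intron. *Zbtb16* rested on 2 week 2 UMIs. *Tcf7*, an early ILC factor with 28.0 kb of intron, was at 36.6 and 1.55 CPM.

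Cytokine receptors of ILC2s differed among themselves. *Il17rb*, the IL-25 receptor chain, was at 57.1 and 2.10 CPM, 27.2-fold (95% interval 21.3 to 35.1) lower, and *Klrg1*, an inhibitory receptor of mature ILC2s, at 65.9 and 10.6 CPM. *Crlf2*, the TSLP receptor chain, and *Il2ra*, the IL-2 receptor α chain, lay within 2-fold, at 46.9 and 41.6 CPM and at 439 and 322 CPM. *Icos*, a costimulatory receptor, was at 596 and 351 CPM. *Il2rg*, the common gamma chain, was 2.05-fold lower, but within 2-fold after TMM scaling.

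Receptors for chemokines, lipids and nerve signals were level or lower, and none was higher. Of 17 chemokine, lipid and tissue exit genes at 20 CPM, 10 were lower and 7 within 2-fold, with a median of -1.95 (-1.63 after centring, with 12 lower). *Cxcr4*, which retains lymphocytes near CXCL12, was at 86.8 (83.5 to 90.2) CPM in naïve and 1.58 (1.18 to 2.08) CPM in week 2 cells. *Ccr8* was at 272 and 7.68 CPM and *Ccr2*, which guides cells out of the bone marrow, at 515 and 70.4 CPM. The integrin α4 gene *Itga4* was 34.6-fold lower, with 63.7 kb of intron. *Cysltr1* and *Ltb4r1*, the leukotriene receptors, were level at 145 and 146 CPM and at 212 and 235 CPM, as was the prostaglandin receptor *Ptger4* at 62.9 and 63.2 CPM. All 6 genes of the list of receptors for nerve signals at 20 CPM were lower, with and without centring. *Ramp3* and *Calcrl*, subunits of the CGRP and adrenomedullin receptors, were at 163 and 306 CPM in naïve and 3.23 and 23.3 CPM in week 2 cells. *Calcrl* has 89.9 kb of intron and is uncertain, and its log2 ratio of -3.66 was -1.85 after centring. *Vipr2*, a receptor of the vasoactive intestinal peptide, was at 59.1 and 2.16 CPM, and is uncertain with 64.1 kb of intron.

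Of 23 cytokine signalling genes at 20 CPM, 5 were higher and 9 lower, shares near those over all genes. After centring 4 were higher and 8 lower. *Socs1*, a feedback inhibitor of JAK and STAT signalling, was at 55.4 (52.8 to 58.1) CPM in naïve and 919.8 (909 to 930.2) CPM in week 2 cells, 16.6-fold (95% interval 15.8 to 17.5) higher, and was found in 9.75% and 79.1% of thinned cells. The cultured libraries of weeks 2 and 3 had 959 and 503 CPM of *Socs1*, and uncultured week 3 cells 118 CPM. *Socs3*, of the same family, was 2.78-fold higher and *Pim2*, a survival kinase, 3.05-fold higher. After centring both lay within 2-fold, at 0.65 and 0.55. *Ifngr1* and *Ifnar1*, receptor chains for interferon γ and type I interferon, were 12.8-fold and 4.85-fold lower. *Stat4* and *Bcl2* were lower by 32.4-fold and 11.9-fold, both with over 100 kb of intron, and the centred ratio of *Bcl2* was -0.59. Of 37 interferon-induced genes only 13 reached 20 CPM, of which 9 were higher and 2 lower. After centring 7 were higher and 1 lower. *Bst2* was at 47.0 and 289.7 CPM, and the GTPases *Ifi47*, *Igtp* and *Gbp4* were 7.73-fold, 8.65-fold and 5.26-fold higher, although each overlaps another gene on its strand. The summed level of the whole list was 461 CPM in naïve and 1199 CPM in week 2 cells, close to the week 3 uncultured level given above.

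Genes of antigen presentation were near level, with 3 of 10 higher and 1 lower. After centring 1 was higher, *Cd74*, and 1 lower, *B2m* at -1.19. *Cd74*, the invariant chain, was at 36.3 (34.2 to 38.5) and 141 (137 to 145) CPM, and *Psmb8*, an immunoproteasome subunit, at 213 and 678 CPM. *H2-K1* and *B2m*, of MHC class I, were level at 1777 and 1667 CPM and at 1421 and 1239 CPM. The class II genes *H2-Aa*, *H2-Ab1* and *H2-Eb1* stayed under 20 CPM in both libraries. Among costimulatory and inhibitory genes, 12 of 19 were lower and 2 higher, or 13 and 3 after centring. *Tnfsf11* (RANKL) was at 218 and 8.13 CPM, *Cd27* at 48.7 and 2.99 CPM and *Ltb*, lymphotoxin β, at 598 and 69.7 CPM. Its partner *Lta* was higher at 21.3 and 141 CPM, as was *Havcr2* (TIM-3) at 3.87 and 25.9 CPM. Of the cytotoxic granule genes 4 reached 20 CPM, and *Nkg7* and *Ctsw* were lower.

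Before centring, genes of growth and biosynthesis made up most of the groups that were higher. Over all genes 24.3% were higher, or 20.9% after centring, and among short-intron genes 45.5% before centring. After centring, the shares of the chaperone, amino acid and respiratory chain lists lay near that of all genes. All 20 ribosome biogenesis genes were higher, with a median log2 ratio of 2.07, and 15 were past 2-fold after centring. The nucleolar proteins *Npm1* and *Ncl* were at 809 (799 to 819) and 488 (479.9 to 496) CPM in naïve cells and at 4271 (4248 to 4293) and 2078 (2063 to 2094) CPM in week 2 cells. *Nhp2*, a subunit of the particles that modify ribosomal RNA, was 13.7-fold (95% interval 13.0 to 14.5) higher and *Nop56* 6.44-fold higher. The week 3 uncultured library lay between them, with *Npm1* at 2379 CPM, and the cultured libraries were lower again at 1578 and 1507 CPM. UMIs of ribosomal protein genes made up 21.4% of naïve, 26.4% of week 2 and 28.2% of week 3 uncultured counts. Long-intron genes took 25.8% of the naïve total and 6.82% of the week 2 total, so these shares cannot be compared directly. CPM levels are shares of the same totals, so this difference enters every ratio of week 2 over naïve given here.

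Chaperones went both ways. The inducible pair *Hspa1a* and *Hspa1b*, near-identical genes whose reads cannot be told apart with certainty, were at 107 and 198 CPM in naïve and 1.92 and 3.66 CPM in week 2 cells. The mitochondrial chaperones *Hspd1* and *Hspe1* were 10.9-fold and 4.29-fold higher. The cytosolic *Hsp90ab1* and *Hsp90aa1* were 3.96-fold and 3.45-fold higher, but within 2-fold after centring, at 0.988 and 0.919. In all, 6 of 11 were higher and 3 lower, or 2 and 3 after centring. Among genes of amino acid supply and the secretory pathway, 11 of 19 were higher and 4 lower (5 and 4 after centring). *Asns*, asparagine synthetase, was at 1.16 and 43.2 CPM, and *Sdf2l1* and *Creld2*, which act in the endoplasmic reticulum, were at 30.7 and 16.3 CPM in naïve and 233 and 121 CPM in week 2 cells. The amino acid transporters *Slc38a2* and *Slc3a2* were lower, at 251 and 36.6 CPM and at 245 and 90.7 CPM.

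In metabolism, 10 of 19 glycolysis and hypoxia genes were higher and 3 lower, and as many after centring. *Pgam1*, *Pgk1* and *Tpi1*, enzymes of glycolysis, were 12.3-fold, 7.43-fold and 7.09-fold higher, and the lactate exporter *Slc16a3* was at 5.59 and 52.3 CPM. The lower ones were *Pfkfb3*, *Slc2a3* and *Pdk1*, the first pair with over 50 kb of intron. Of 24 nuclear genes of the respiratory chain, 18 were higher, but nearly all have short introns and 5 stayed past 2-fold after centring, among them *Cycs* at 99.3 and 628 CPM. Cholesterol and fatty acid genes were higher in 5 of 13 cases and lower in 2, or 5 and 0 after centring. *Idi1*, of the isoprenoid pathway, was 6.53-fold higher at 118 CPM. Of 14 cell cycle genes at 20 CPM, 12 were higher and none lower, with a median of 2.56 (1.80 after centring, with 12 higher and 1 lower). *Rrm2*, which supplies nucleotides for replication, was at 3.31 and 56.3 CPM and *Mcm5*, of the replication helicase, at 7.04 and 72.9 CPM, while *Hmgb2* lay within 2-fold. Cells with 2 or more genes of the list after thinning made up 11.2% (10.4 to 12.1) of naïve and 37.3% (35.0 to 39.6) of week 2 cells. The week 3 uncultured library, with 5473 CPM summed over the list, exceeded week 2 with 1606 CPM and naïve with 629.9 CPM.

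Several of the 12 short-intron genes with the highest ratios belong to none of these groups. *Phlda3*, *Sfn* and *Rps27l*, known as targets of p53, were at 2.51, 4.46 and 72.7 CPM in naïve and 95.6, 110.3 and 1310.2 CPM in week 2 cells. The cultured libraries of weeks 2 and 3 had 105 and 78.1 CPM of *Phlda3*, 34.9 and 119 CPM of *Sfn*, and 881 and 710 CPM of *Rps27l*. Uncultured week 3 cells had 3.21, 5.02 and 364 CPM of these genes. *Rps27l* was found in 12.7% of thinned naïve and 89.5% of thinned week 2 uncultured cells. *Tlr2*, a receptor for bacterial lipoproteins, was at 0.529 and 61.9 CPM, and *Hamp* at 0.0331 CPM, from 1 UMI, and 104 CPM. *Rbm42*, an RNA-binding protein gene, had 2 naïve UMIs but lay between 55.0 and 82.7 CPM in each of the 4 libraries counted with Cell Ranger 3.0.2. *Slc39a7*, a zinc transporter, had 1.52 CPM in naïve cells and 25.7 to 81.6 CPM in the other 4. By the rule that a gene lie under 1 CPM in the naïve library and at 20 CPM or more in the other 4, only *Rbm42* and *Rad51ap1* were found. In the other direction 25 genes were at 20 CPM or more in the naïve library and under 1 CPM in each of the other 4, of which 18 have 50 kb or more of intron.

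The long-intron genes with the most extreme ratios are given as uncertain. *Gm20388*, annotated from 119910841 to 124345722 on chromosome 8 and spanning many other genes on its strand, was at 918 CPM in the naïve library and had no UMI in the other 4. *Bach2* (337 kb of intron) was at 663 and 1.89 CPM, *Stab2* at 1155 and 4.08 CPM, *Kcnq5* at 1657 and 8.04 CPM and *Kcnd2* at 245 and 0.548 CPM. *Kcnq5* was at 10.2 CPM in week 3 uncultured cells, near its week 2 level. The log2 ratio of week 2 over week 3 uncultured cells was -0.31 for *Kcnq5* and -0.05 for *Kcnd2*. For *Bach2* and *Stab2* it was -2.48 and -4.35, so these genes were also lower in week 2 than in week 3. Both of these libraries were counted with Cell Ranger 3.0.2, and the cause was not tested. The centred ratios of week 2 over naïve for *Gm20388*, *Bach2*, *Stab2*, *Kcnq5* and *Kcnd2* ran from -6.91 to -4.37. The 5 long-intron genes with the highest ratios were *Bhlhb9*, *Nsun2*, *Psmb7*, *Psma2* and *Nek6*, from 5.65-fold to 7.02-fold higher. *Bhlhb9* and *Psma2* overlap other genes on their strand. They stand against the trend of their class, in which 1376 of 1846 genes were lower and 51 higher. *Psmb7* and *Psma2* encode proteasome subunits and were at 73.2 and 192 CPM in naïve and 437 and 1086 CPM in week 2 cells. *Malat1*, a nuclear RNA annotated without introns, was at 18287 and 5321 CPM.

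Summed T cell, NK or ILC1, B cell, mast cell, epithelial, endothelial, fibroblast and red cell markers were lower in the week 2 library, and summed myeloid markers were not. An alternative without cells holding 3 or more T cell genes kept 3319 naïve and 1267 week 2 cells. One without cells holding 2 or more NK or ILC1 genes kept 5591 and 1744. The reversals given in the closing section came from other alternatives. What part the other cell types had in the differences was not tested. All 10 T cell genes at 20 CPM of 17 were lower, or 9 after centring. The summed level of the list was 1307 CPM in naïve and 360.1 CPM in week 2 cells. *Cd3e*, *Cd3d* and *Trdc* were at 25.4, 23.3 and 24.1 CPM against 1.61, 1.58 and 0.609 CPM, *Cd3g* at 229 against 40.0 CPM, *Trbc1* at 256 against 43.8 CPM and *Tcrg-C1* at 32.9 against 13.5 CPM. The *Trbc* and *Tcrg-C* genes have near-identical copies and are uncertain. *Cd4* had no UMI in either library and *Cd8a* 1 naïve UMI. Cells with 3 or more genes of the list after thinning made up 18.8% (17.8 to 19.9) of naïve and 1.70% (1.15 to 2.42) of week 2 cells, and 48.6% (45.1 to 52.0) in the week 3 uncultured library. The NK or ILC1 list summed to 226 and 58.5 CPM, with *Klrk1* at 40.4 and 1.07 CPM and *Eomes* at 0 in week 2. In the type 17 list, 2 of 4 genes were higher (*Il22* and *Lta*) and 2 lower, with levels of 30.1 and 0.0914 CPM for *Il23r*, from 3 week 2 UMIs.

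Epithelial genes summed to 275 CPM in naïve and 21.5 CPM in week 2 cells. Most of this was *Scgb1a1*, the secretory protein of club cells, at 224 and 1.68 CPM, of which 90.9% of thinned naïve UMIs lay in 286 of 5705 cells. A single cell held 753 of the 1943 thinned naïve UMIs of this gene. Endothelial genes summed to 84.6 and 25.2 CPM. Most of this was *Pecam1*, at 64.3 and 17.3 CPM, which has over 50 kb of intron and is uncertain. Its log2 ratio of -1.84 was -0.03 after centring. B cell genes summed to 58.0 CPM in naïve cells, with *Ighm* at 51.7 and 4.02 CPM. The mast cell gene *Cpa3* had 915 naïve UMIs and none in week 2, at least 331-fold lower, while *Mcpt8*, *Mcpt4*, *Tpsb2*, *Ms4a2* and *Prss34* were at 0 in both libraries. Myeloid genes were at 167 and 209.7 CPM, nearly all of it *Cst3*, with *Itgax* at 0 in both libraries and *Csf1r* at 1 UMI or none. Neutrophil and fibroblast genes stayed under 10 CPM in sum in both libraries, and red cell genes summed to 38.8 and 3.59 CPM.

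The study's own table holds 31 genes, which the paper describes as known markers of ILC2 subpopulations and immune functions. Its values come from these libraries and so are no independent evidence of direction. Of the 31 genes, 18 reached 20 CPM, of which 3 were higher (*Il13*, *Il5* and *Cd74*), 14 lower and *Cxcl10* within 2-fold. The 14 are the gate genes, *Klrg1*, *Il17rb*, *Ifngr1*, *Ltb*, *Ccr2*, *Tcf7* and the 6 genes of T cell receptor chains and CD3 given above. The remaining 13, among them *Ifng*, *Gzmb*, *Gzmc* and *Tbx21*, lay under 20 CPM in both libraries.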

How the data were processed

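Lung ILC2s of 5 libraries were profiled as 10x 3' single-cell RNA, and the naïve and week 2 ta-non-activated libraries were compared. The deposited matrices hold raw UMI counts per gene and barcode, made by the authors with Cell Ranger. The submitters' processing notes name Cell Ranger 3.0.2 and Seurat 3, while the header of the naïve matrix names 6.0.0. The annotation used for counting was not given in the sources used here. Intron lengths and positions were taken from GENCODE M21 (GRCm38), which held 27639 of the 27726 genes common to the 5 matrices.

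Barcodes were kept with 200 or more genes, under 5% mitochondrial counts and 1 or more UMIs of *Gata3* or *Il1rl1*. No doublet caller was used. Counts of the gated cells were summed per library and given as CPM with exact Poisson intervals, and ratios with exact conditional intervals. A gene at 20 CPM or more in either library was called higher or lower past 2-fold of CPM + 1. Against a library without a UMI, a floor of 3 counts over the gated cells of that library gave the bound. Shares of cells were taken after thinning each cell to 2000 UMIs, with exact Clopper-Pearson intervals; PCR duplicates were removed by the UMIs, and all intervals cover counting error only. Short-intron genes have under 10 kb and long-intron genes 50 kb or more of intron.

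Members and lists were chosen with earlier results of these data known. Named genes were the 12 highest and 12 lowest ratios of short-intron protein-coding genes at 50 CPM, the 5 highest and 5 lowest of long-intron genes, up to 4 in each direction of each list, the genes of the study's table at 20 CPM, and defining markers. List members within 2-fold, *Rad51ap1* and *Furin* were named after their values were seen. Some genes that the rule names are not reported here. Promoters came from the RefSeq table of GRCm38.p6.

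Analysis used Python 3.11.15, numpy 2.4.6, scipy 1.17.1, pandas 2.3.3, matplotlib 3.10.9, and R 4.3.3 with edgeR 4.0.16 for TMM factors only. The summing and fold steps were tested on simulated data. Results were recomputed under 18 alternatives.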

Additional observations from a re-analysis of the deposited data

How the results depend on the processing

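The counts of 1597 higher and 2290 lower genes were recomputed under 18 alternatives and ranged from 749 to 2308 higher and from 243 to 3250 lower. A minimum of 100 CPM gave 749 higher and 866 lower genes, and restriction to genes with under 10 kb of intron gave 935 and 243, both from fewer genes tested. A minimum of 5 CPM gave 1949 and 3250, TMM scaling 2244 and 1802, and median-of-ratios scaling 2308 and 1758. Leaving out the 5% of cells with most UMIs, an alternative chosen after seeing the data, gave 1577 genes higher in week 2 and 2283 genes lower in week 2. Over 149 called genes that the text names or lists, 2534 values under alternatives held 3 reversals, and 2485 were still past 2-fold. Centring on intron length reversed *Acaca*, from -1.63 to 1.31, and *Nlrc5*, from -1.31 to 0.50. Another alternative left out cells that held 2 or more cell cycle genes, which left 3917 naïve and 204 week 2 cells. These genes were counted without thinning, so the rule fell harder on the deeper week 2 library. After thinning, 37.3% of week 2 cells held 2 or more of them. What depth and cell cycle each contributed was not tested. *Ccl5* reversed to 1.36 in the cells left, as did the median of the chemokine list, also at 1.36. The median of the cell cycle list was -0.61, since its own genes chose the cells left out. Over 25 called list medians, 444 values held these 2 reversals and 403 were still past 2-fold. No paired analysis was possible because each group is 1 library. The depth per cell differed, at medians of 4549 and 16279 UMIs, and 184 naïve and 4 week 2 cells were too shallow for the thinned shares. Spread between mice, tumour against library, and the version of Cell Ranger cannot be told apart.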

Other observations

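*Penk*, the precursor of the enkephalin peptides, had 1 UMI in the naïve library and 640 in the week 2 library (19.5 CPM), just under the 20 CPM limit. *Cxcl16*, a chemokine for CXCR6, was at 0.496 and 18.4 CPM, also under the limit. *Ctla4*, an inhibitory receptor, was at 17.8 CPM in naïve cells and had 3 UMIs in week 2 cells. *Ccr9*, a gut homing receptor, was at 17.3 and 0.244 CPM. *Pth*, the parathyroid hormone gene, had no naïve UMI and 767 UMIs in week 2 cells (23.4 CPM), at least 236-fold higher against a floor of 3 counts. These genes were chosen after their values were seen.

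*Ly6a*, which encodes the surface protein Sca-1, was at 128 CPM in naïve and 2185 CPM in week 2 cells, with medians of 0 and 4 UMIs per 2000. In the other libraries it was at 82.3, 6766 and 4676 CPM. Naïve cells outside the gate that reached 2000 UMIs numbered 444, and 85.6% of them held *Il7r*, 65.1% *Fos* and 0.676% *Il13*. The 43 such week 2 cells held *Il7r* in 25.6%, *Fos* in 0% and *Il13* in 53.5%.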
